A study of Mus musculus with 10 samples.

Results

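Cytosolic ribosomal protein genes were followed through both RNA-seq experiments of ASZ001, a mouse basal cell carcinoma (BCC) cell line. They were chosen by name, as genes called Rpl or Rps with a number (an a, x or l may follow), plus Rpsa, Rplp0, Rplp1 and Rplp2, with a mean of at least 5 RPKM over all libraries of a table. RPKM is a read count scaled to gene length and library size, so that levels can be compared between genes. In the table of the SB431542 experiment 81 symbols matched and 79 reached the minimum, of 17658 genes. In the table of the T-5224 experiment 80 symbols matched and 67 reached it, of 16719 genes, and 66 genes were members in both.

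All cells were grown in low serum (0.2% chelated FBS with 0.05 mM calcium) for 24 h and received either vehicle or an inhibitor. The SB431542 experiment had 3 DMSO libraries and 3 libraries with 10 µM SB431542, which blocks the TGFß receptor kinase ALK5. The T-5224 experiment had 2 DMSO libraries of its own and 2 libraries with 20 µM T-5224, an inhibitor of AP-1. ASZ001 is 1 cell line, and each inhibitor was used at 1 dose and 1 time. These libraries held an estimated 31500000 to 52200000 reads each. Both inhibitors were compared only with the vehicle libraries from the same table, by limma on log2(RPKM + 0.5), and a gene was called higher or lower at a Benjamini-Hochberg adjusted p under 0.05 over all genes tested, which were 10842 and 10809.

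Ribosomal proteins of the cytosol make up the small (Rps) and large (Rpl) subunits of the ribosome together with ribosomal RNA. Most of their mRNAs begin with a run of pyrimidines, the 5′ terminal oligopyrimidine (TOP) motif, through which mTOR and Larp1 set how much of them is translated and how stable they are. Mammalian genomes hold many processed pseudogenes of these genes, which are intron-less copies of the mature mRNA, so that a short read from a ribosomal protein mRNA can match several places.

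The start sites of several members show the pyrimidine run. The windows below cover 15 bases before and 15 bases after the RefSeq start (build GRCm38.p6), 5′ to 3′, with the pyrimidine run that spans the start in capitals. They are the 6 with the longest run among those whose run lies wholly inside the 30 bases, followed by Rplp2, a protein of the ribosomal stalk, and Rps6, the substrate of the S6 kinases.
Rpl7a (chr2:26910792-26910821, + strand): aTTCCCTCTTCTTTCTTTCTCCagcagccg
Rpl35 (chr2:39005117-39005146, - strand): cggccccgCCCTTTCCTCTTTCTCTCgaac
Rpl15 (chr14:18270972-18271001, - strand): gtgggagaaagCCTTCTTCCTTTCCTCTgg
Rpl14 (chr9:120571502-120571531, + strand): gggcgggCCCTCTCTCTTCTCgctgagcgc
Rpl35a (chr16:33056467-33056496, + strand): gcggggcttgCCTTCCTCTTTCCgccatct
Rps10 (chr17:27635230-27635259, - strand): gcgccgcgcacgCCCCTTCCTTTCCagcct
Rplp2 (chr7:141447636-141447665, + strand): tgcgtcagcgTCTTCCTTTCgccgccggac
Rps6 (chr4:86857353-86857382, - strand): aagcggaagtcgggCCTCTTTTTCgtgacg

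RefSeq start windows were found for 59 of the 80 genes that were members in either table, 70 windows in all. A pyrimidine run of at least 8 bases that overlapped the 10 bases on either side of the start stood in 42.9% of these windows, against 13.6% of the 32781 windows of other genes. Over the 300 bases around the start, searched on both strands, the ETS-type motif CCGGAAG was in 37.1% of the members' windows and 8.80% of the others, the YY1-type motif GCCATNTT in 21.4% and 6.02%, the GC box GGGCGG in 58.6% and 35.6%, and the E-box CACGTG in 11.4% and 7.14%. The AP-1 motif TGANTCA, whose factor T-5224 is directed at, was in 2 of the 70 windows (2.86%, against 7.82% of the others), and the ATF4-type motif TGATGNAA in 0 (3.98% of the others). These shares describe letters in the windows only.

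The next 5 coding stretches show how members differ in their copies. Each starts with 10 intronic bases in lower case, followed by the first 50 bases of an internal coding exon in capitals (mm9, 5′ to 3′). They were chosen as 3 members that were far lower in the T-5224 table than in the SB431542 table and 2 that were not.
Rpl23a (chr11:77995046-77995105, - strand): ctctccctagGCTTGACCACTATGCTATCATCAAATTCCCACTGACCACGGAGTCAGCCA
Rps12 (chr10:23505761-23505820, - strand): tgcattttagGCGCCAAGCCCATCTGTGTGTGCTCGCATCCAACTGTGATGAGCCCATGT
Rpl3 (chr15:79910231-79910290, - strand): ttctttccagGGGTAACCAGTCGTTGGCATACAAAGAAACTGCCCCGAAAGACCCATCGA
Rpl8 (chr15:76735238-76735297, + strand): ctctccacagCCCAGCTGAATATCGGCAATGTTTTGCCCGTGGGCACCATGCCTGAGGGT
Rpl4 (chr9:64024738-64024797, + strand): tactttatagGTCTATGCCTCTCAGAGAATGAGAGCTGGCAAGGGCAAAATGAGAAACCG

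The 50 coding bases of Rpl23a occur at 3 places in the mm9 genome, and those of Rps12 and Rpl3 at 5 places each. Those of Rpl8 and Rpl4 occur at 1 place each. With the 10 intronic bases in front, each of the 5 stretches occurs once. To put a number on this for every gene, the share of all 50-base windows of the coding sequence with no second exact match in the genome was computed, and it is called the unique share here. It was known for 77 of the 79 members of the SB431542 table and had a median of 9.35% over them, against 98.4% over 7320 other genes with at least 5 RPKM in the DMSO libraries of the SB431542 table. A unique share of at least 50% was found in 12 members, and 43 members were under 10%.

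In the DMSO libraries of the SB431542 table the members were among the abundant mRNAs. Their mean levels ran from 39.2 RPKM for Rps15a to 2113 RPKM for Rpl41, with a median of 538.6 RPKM, against 12.7 RPKM over all genes tested. The quartiles lay 2.19-fold apart. The 32 genes of the small subunit had a median of 544.3 RPKM and the 47 of the large subunit 518.2 RPKM. Together the 79 members held 11.7% ± 0.160 (SD, n = 3) of the summed RPKM of all genes. The highest after Rpl41, which encodes the shortest protein of the large subunit, were Rps2 (1829 ± 115 RPKM, SD, n = 3), Rps26 (1600 ± 326), the stalk base protein Rplp0 (1349 ± 239) and Rpl23a (1084 ± 173), so that Rps26 and Rplp0 did not differ beyond their spread. The lowest after Rps15a were Rps4l (61.3 ± 1.68 RPKM), Rps27l (88.1 ± 5.63), Rpl22 (101 ± 2.36) and Rpl39l (107 ± 4.73). Rpl32l and Rpl3l, the form of Rpl3 known from muscle, fell outside the minimum with means of 0.172 and 0.00583 RPKM over all 6 libraries, and the next gene above it was Rps15a with 42.6 RPKM.

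The same genes were far lower in the T-5224 table. There the DMSO levels of the 67 members ran from 2.62 RPKM for Rpl11 to 1507 RPKM for Rpl41, with a median of 41.7 RPKM and quartiles 8.18-fold apart, while the median over all genes tested was 12.1 RPKM. The members held 3.01% ± 0.0713 (SD, n = 2) of the summed RPKM. Of the 13 matched genes under the minimum, with means of 0.630 to 4.93 RPKM, the DMSO levels in the SB431542 table were between 218 and 1084 RPKM. Rpl3, which lies near the catalytic centre, was at 474, 581 and 584 RPKM in the DMSO libraries of the SB431542 table and at 0.987 and 0.823 RPKM in those of the T-5224 table. Rpl23a, at the exit of the nascent chain, was at 1282, 972 and 996 RPKM in the first and at 1.74 and 1.46 RPKM in the second. Rps12 was at 1048, 961 and 985 RPKM against 3.28 and 2.37 RPKM.

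Other members stood at like levels in both tables. Rpl8 was at 621, 737 and 735 RPKM with DMSO in the first table, against 864 and 842 RPKM in the second. Rps3 was at 178, 216 and 227 RPKM against 259 and 250 RPKM. Rpl39l, a relative of Rpl39 known from the testis, was at 102, 111 and 109 RPKM against 125 and 118 RPKM. The tables were normalised separately, so these levels are set side by side and were not tested.

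**Figure D1:**
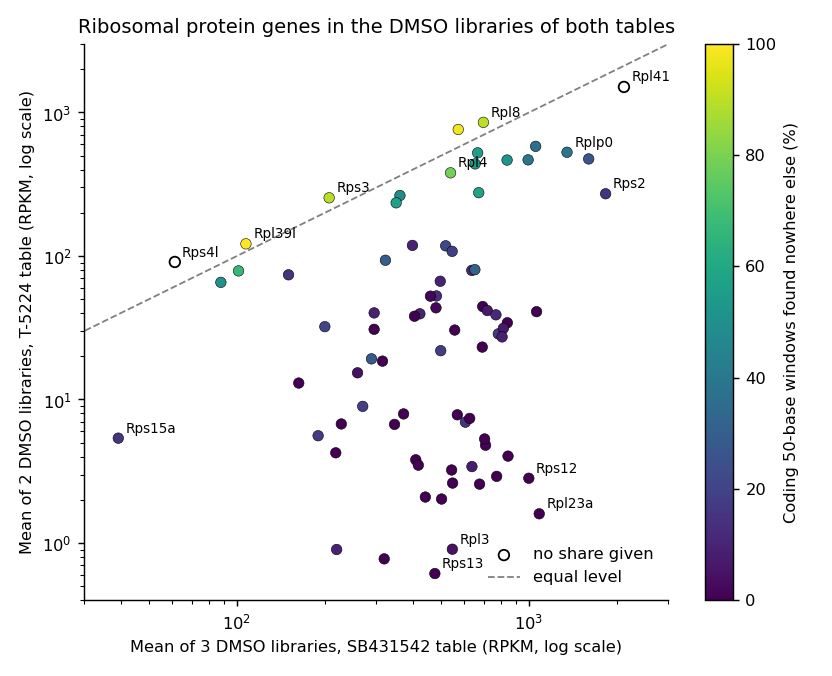
Mean DMSO level of the 79 members in the SB431542 table (horizontal, 3 libraries) and in the T-5224 table (vertical, 2 libraries), both in RPKM on log scales, coloured by unique share. Points with a high unique share, such as Rpl8 and Rpl39l, lie near the dashed line of equal level, and dark points fall to about 1 RPKM.

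The level in the T-5224 table went with the unique share. Over the 43 members with under 10% of windows unique, the vehicle level in the T-5224 table was at a median of 1.95% of that in the SB431542 table (quartiles 0.477 and 5.90%). The median was 11.7% over the 14 members at 10 to 25%, 34.4% over the 8 at 25 to 50%, 67% over the 7 at 50 to 75%, and 122% over the 3 at 90% or more. Spearman's rho between the unique share and this percentage was 0.81 over the 77 members, which share the libraries of each table. Genes that are no ribosomal proteins showed the same order, from a median of 14.0% over the 111 with under 10% of windows unique to 103% over the 6462 at 90% or more, but over all 7320 of them Spearman's rho was only 0.20, and 88.3% of them had a unique share of at least 90%. Gapdh and Ppia, abundant genes of other function with a unique share of 0%, were at 2281 ± 316 and 2938 ± 94.0 RPKM (SD, n = 3) in the first table and at 10.6 ± 0.689 and 9.83 ± 0.342 RPKM (SD, n = 2) in the second. The other direction occurred too, since Rpl32l was at 0.177 ± 0.0363 RPKM in the first table and at 155 ± 9.44 RPKM in the second. Which alignments were counted for each table is not given in the sources used here, and the part that this had in the levels was not tested. The levels of members with a low unique share are therefore given as the table lists them, and not as amounts of mRNA in the cells.

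**Figure D2:**
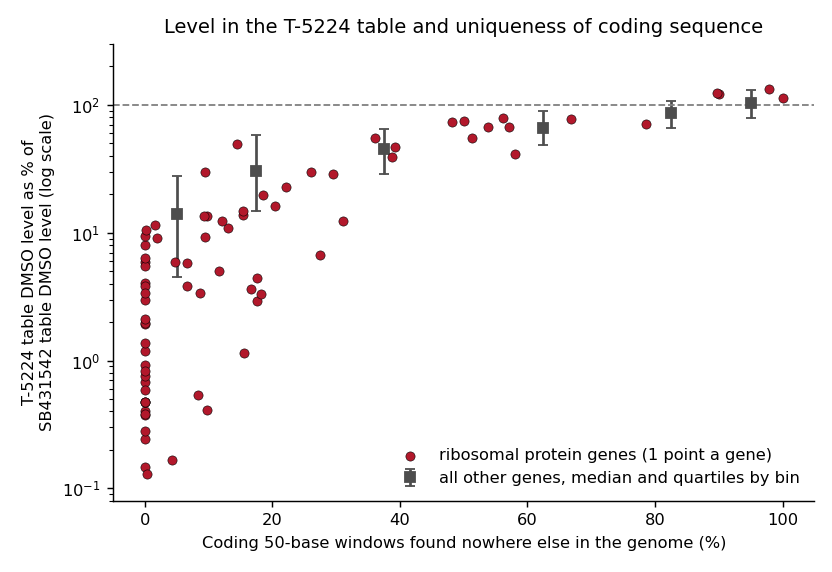
Mean DMSO level in the T-5224 table as a percentage of that in the SB431542 table (vertical, log scale) against the share of coding 50-base windows found nowhere else in the genome (horizontal). Red points are members, and grey squares with bars are medians and quartiles of all other genes in 6 bins. Members with a unique share of 0% spread below about 10%, and those at 90% or more lie at or above the dashed line of equal level.

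Before the comparison with SB431542, 1 library must be set apart. DMSO replicate 1 of the SB431542 experiment had 45 of the 79 members below both other DMSO libraries and 29 above both. Relative to the mean of DMSO replicates 2 and 3 they ranged from 55.7% (Rps14) to 167% (Rpl35). The other DMSO libraries and the 3 SB431542 libraries lay close together. Between SB431542 libraries the median SD over the members was 0.02 on the log2 scale, against 0.14 between all DMSO libraries. Over all genes tested these values were 0.06 and 0.11. DMSO replicate 1 also had the lowest Rn45s, the 45S ribosomal RNA precursor, with 770 RPKM against 1868 to 2229 in the other 5. Over the members the difference of this library had a Spearman's rho of -0.20 with the GC content of the coding sequence. It was -0.10 with transcript length and -0.13 with the unique share. Over 9434 other genes tested the values were -0.26, 0.08 and -0.04. The cause of this difference was not tested, and the main results with SB431542 are given with and without this library.

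With SB431542 the members were slightly higher. Their median log2 fold change was 0.15, against 0.01 over all 10842 genes tested, and 70 of 79 had a positive value. With all libraries 8 members were called higher (10.1%) and 1 lower (1.27%), while 10.2% of all genes tested were called higher and 10% lower. None changed more than 2-fold, a limit that 0.231% of all genes passed upward and 0.581% downward. Without DMSO replicate 1 the median was 0.13, 76 of 79 values were positive, and 57 members (72.2%) were called higher and 1 lower, against 19.9% and 17.6% of all genes. Without DMSO replicate 2, or without any 1 of the SB431542 replicates, 0 members were called higher by limma (11 to 26 at an unadjusted p under 0.05), and without DMSO replicate 3 there were 8, so every call of a higher member below was lost when some single library was left out. The members' median log2 fold change lay between 0.13 and 0.18 in all 6 of these fits. Their share of the summed RPKM was 12.6% ± 0.0607 (SD, n = 3) with SB431542 and between 11.6 and 11.9% in the DMSO libraries, so the groups did not overlap.

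The 8 members called higher with all libraries included Rpl12, Rpl8, Rps18, Rps10, Rpl27, Rpl6 and Rpl35a. Rpl12, at the base of the stalk, was at 758, 884 and 900 RPKM with DMSO and at 1049, 1055 and 1043 RPKM with SB431542. All 3 treated libraries were above all DMSO libraries, with a log2 fold change of 0.31 (SE 0.08, adjusted p = 0.0274) and of 0.23 without DMSO replicate 1 (SE 0.03, adjusted p = 0.000307). Rpl8, which lies at the peptidyl transferase centre, was at 621, 737 and 735 RPKM and then at 832, 848 and 846 RPKM (log2 fold change 0.28, SE 0.08, adjusted p = 0.0431). Again the groups did not overlap.

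Rps18, in the head of the small subunit, was at 731, 796 and 784 RPKM with DMSO and at 898, 905 and 899 RPKM with SB431542 (log2 fold change 0.23, adjusted p = 0.0292). The 3 treated libraries differed from each other by less than the DMSO libraries did. The log2 fold changes of Rps10, Rpl27, Rpl6 and Rpl35a were between 0.18 and 0.21.

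The single member called lower was Rps4l, a copy of Rps4x. It was at 62.7, 61.6 and 59.4 RPKM with DMSO and at 54.9, 54.2 and 53.4 RPKM with SB431542, groups that did not overlap. Its log2 fold change was -0.18 (SE 0.05, adjusted p = 0.0391), and -0.16 (adjusted p = 0.00826) without DMSO replicate 1. The call was lost without DMSO replicate 2 or 3, and without any 1 of the SB431542 replicates. Rps4x itself, on the X chromosome, was at 327, 417 and 453 RPKM and then at 492, 477 and 466 RPKM, and was not called (0.28, SE 0.11, adjusted p = 0.128).

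Several members did not pass the test over all libraries, and DMSO replicate 1 was their lowest library. Rps14, a small subunit protein whose loss is known from the 5q deletion syndrome, was at 236, 414 and 434 RPKM with DMSO and at 491, 491 and 460 RPKM with SB431542 (log2 fold change 0.46, SE 0.21, adjusted p = 0.163). Without the first of these libraries its value was 0.18 (SE 0.04, adjusted p = 0.00661). Rplp0 was at 1074, 1462 and 1510 RPKM and then at 1622, 1606 and 1573 RPKM, with 0.26 (adjusted p = 0.178) over all libraries and 0.11 (SE 0.03, adjusted p = 0.0190) without DMSO replicate 1. The stalk protein Rplp1 gave 0.27 (adjusted p = 0.164) and 0.12 (adjusted p = 0.0269), and its partner Rplp2 0.12 (adjusted p = 0.246) and 0.07 (adjusted p = 0.223). For Rplp2 neither fit reached the threshold. Rpsa, a small subunit protein also known as the laminin receptor, had 0.16 (adjusted p = 0.139) and 0.09 (adjusted p = 0.0500). Rps19, the gene most often mutated in Diamond-Blackfan anaemia, had 0.26 (adjusted p = 0.0969) and 0.15 (adjusted p = 0.0167).

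In other members DMSO replicate 1 was the highest of the DMSO libraries. Rps26 was at 1977, 1410 and 1414 RPKM with DMSO and between 1476 and 1482 RPKM with SB431542, and Rpl35 at 870, 516 and 526 RPKM and between 577 and 600.5 RPKM. Their log2 fold changes were -0.09 and -0.07, neither called, and became 0.07 (adjusted p = 0.0606) and 0.18 (SE 0.03, adjusted p = 0.00223) without that library. Rps6 had 0.01 (SE 0.10) over all libraries and 0.13 (SE 0.03, adjusted p = 0.00796) without it. Rpl5 and Rpl11, which form a particle with 5S ribosomal RNA that binds Mdm2, had 0.05 (SE 0.07) and 0.13 (SE 0.06), neither called, and 0.13 (adjusted p = 0.00754) and 0.17 (adjusted p = 0.00511) without it.

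**Figure D3:**
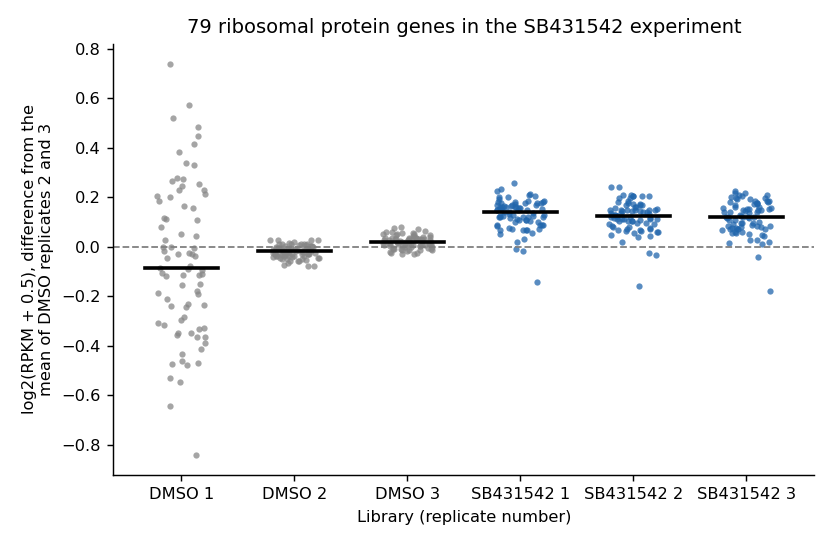
Difference of each of the 79 members from its mean in DMSO replicates 2 and 3, on the log2(RPKM + 0.5) scale, in the 6 libraries of the SB431542 experiment (grey DMSO, blue SB431542, black bars medians). DMSO replicate 1 spreads widely to both sides, and the 3 SB431542 libraries sit mostly above 0.

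Both subunits held called members. Of the 32 small subunit genes 3 were called higher and of the 47 large subunit genes 5, which are 9.38% and 10.6% beside 10.2% of all genes tested, with median log2 fold changes of 0.16 and 0.14. Without DMSO replicate 1 these counts were 23 of 32 and 34 of 47, beside 19.9% of all genes tested, and the medians 0.13 and 0.13. The 12 members with a unique share of at least 50% had a median of 0.16 (range 0.01 to 0.30) and the 57 members under 25% one of 0.15.

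With T-5224 most members rose. The median log2 fold change of the 67 members was 0.61, against 0.00 over all 10809 genes tested. Of the 67, 54 (80.6%) were called higher and 5 (7.46%) lower, while 40.3% of all genes were called higher and 39.4% lower. More than 2-fold higher were 6 members and more than 2-fold lower 0, against 10.4% and 10.6% of all genes. Of these 6, Rpl11, Rpl12, Rps12 and Rps27 had under 5 RPKM with DMSO and were members through the T-5224 libraries, so their rise was in part selected by the minimum. The members' share of the summed RPKM went from 3.06 and 2.96% with DMSO to 4.32 and 4.23% with T-5224. There were 6 members that reached the 5 RPKM minimum through 1 arm only, 5 of them through the T-5224 libraries (Rpl11, Rpl12, Rps12, Rps23 and Rps27) and Rpl5 through DMSO. Over the other 61 members 49 were higher and 4 lower, 2 of them more than 2-fold higher (Rpl10a and Rpsa), with a median of 0.60.

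The rise was present in the members whose sequence has few copies. Rpl8 (unique share 90.1%) was at 864 and 842 RPKM with DMSO and at 1469 and 1385 RPKM with T-5224 (log2 fold change 0.74, SE 0.05, adjusted p = 1.73e-07). Rps3, at the mRNA entry (89.8%), was at 259 and 250 RPKM and then at 449 and 412 RPKM (0.76, SE 0.06, adjusted p = 1.97e-07). In both genes the treated libraries were far above the DMSO libraries.

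Rpl4, which lines the exit tunnel (78.6%), was at 386 and 373 RPKM with DMSO and at 677 and 647 RPKM with T-5224 (log2 fold change 0.80, SE 0.05). Over the 12 members with a unique share of at least 50%, 11 (91.7%) were called higher and 0 lower, with a median of 0.45 and a range of -0.11 to 0.87. The exception was Rpl39l, with a unique share of 100%, at 125 and 118 RPKM with DMSO and 111 and 114 RPKM with T-5224 (-0.11, SE 0.05, adjusted p = 0.0699). Over the 8 members at 25 to 50% all 8 were higher (median 0.58). Over the 44 under 25%, 34 (77.3%) were higher and 4 (9.09%) lower (median 0.67). Of all genes tested 40.3% were called higher and 39.4% lower. Spearman's rho between the unique share and the log2 fold change with T-5224 was -0.04 over 64 members.

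The stalk genes rose together. Rplp0 (mm9 chromosome 5, 116009476 to 116013736) was at 515 and 541 RPKM with DMSO and at 832 and 778 RPKM with T-5224 (log2 fold change 0.61, SE 0.06, adjusted p = 1.15e-06). Rplp1 was at 573 and 588 RPKM and then at 1020 and 972 RPKM (0.78, SE 0.05, adjusted p = 8.36e-08). Rplp2 was at 84.4 and 76.2 RPKM and then at 115 and 113 RPKM (0.51, SE 0.06, adjusted p = 8.75e-06). Rplp0 is often used as a reference gene for qRT-PCR, and here its level was 1.53-fold that of DMSO.

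Of the small subunit genes named above, Rps19 went from 106 and 110 RPKM to 200 and 199 RPKM (log2 fold change 0.89, SE 0.05), Rps14 from 263 and 264 RPKM to 377 and 389 RPKM (0.54, SE 0.05) and the ubiquitin fusion gene Rps27a from 5.10 and 5.52 RPKM to 9.39 and 10.2 RPKM (0.83, SE 0.08), all called. Rps6 was at 7.77 and 7.88 RPKM with DMSO and 7.90 and 8.53 RPKM with T-5224, and was not called (0.07, SE 0.08, adjusted p = 0.449). Rpl41, the highest member, was at 1579 and 1434 RPKM and then at 1598 and 1541 RPKM (0.06, SE 0.06, adjusted p = 0.371), and its groups overlapped. Rps2, high in both tables, went from 302 and 241 RPKM to 522 and 491 RPKM (0.91, SE 0.09), and Rps26 from 465 and 484 RPKM to 619 and 589 RPKM (0.35, SE 0.05), both called. Over all, 26 of 30 small subunit genes (86.7%) and 28 of 37 large subunit genes (75.7%) were called higher, with medians of 0.58 and 0.62. Lower were 1 (3.33%) and 4 (10.8%), while 40.3% of all genes tested were called higher and 39.4% lower.

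The 6 members that rose more than 2-fold all had a unique share between 0 and 0.119%, and their DMSO levels were between 0.283 and 10.5% of those in the SB431542 table. Rpl10a (chromosome 17, 28465416 to 28467977) was at 6.35 and 7.06 RPKM with DMSO and at 58.6 and 58.3 RPKM with T-5224 (log2 fold change 3.03, SE 0.07, adjusted p = 1.21e-11). In the SB431542 table it was at 296 to 379 RPKM with DMSO, so even the T-5224 libraries were below that. Rpl12 (chromosome 2, 32817079 to 32820016) went from 3.89 and 4.17 RPKM to 27.8 and 24.1 RPKM (2.54, SE 0.08, adjusted p = 2.33e-10).

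Rpl11 went from 1.74 and 3.49 RPKM to 13.0 and 13.5 RPKM (log2 fold change 2.20, SE 0.19), Rps27, a zinc finger protein of the small subunit, from 3.58 and 2.87 RPKM to 12.1 and 14.4 RPKM (1.89, SE 0.11), and Rps12 from 3.28 and 2.37 RPKM to 9.37 and 8.30 RPKM (1.5, SE 0.12). In each of these the DMSO libraries were below 5 RPKM. Rpsa rose at a higher level, from 30.7 and 30.9 RPKM to 75 and 71.9 RPKM (1.24, SE 0.05, adjusted p = 2.41e-09). The lowest library among these 6 genes held an estimated 38.7 reads.

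There were 5 members lower with T-5224. Rpl5 was at 8.51 and 7.36 RPKM with DMSO and at 4.58 and 3.40 RPKM with T-5224 (log2 fold change -0.92, SE 0.12, adjusted p = 2.90e-05). It reached the minimum through DMSO only, so its fall was in part selected by the minimum, as was the rise of its 5S partner Rpl11. Rpl15 was at 13.5 and 12.5 RPKM and then at 7.43 and 6.27 RPKM (-0.88, SE 0.09, adjusted p = 2.70e-06). Rpl27a was at 32 and 28.9 RPKM and then at 20.2 and 19.7 RPKM (-0.59, SE 0.07), and Rpl31 at 6.39 and 7.11 RPKM and then at 5.86 and 4.45 RPKM (-0.37, SE 0.12, adjusted p = 0.0121). The unique share of these 4 was 0%, and their levels were 2.13 to 8.0% of those in the SB431542 table.

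Rps4l, the fifth, was the only member called lower in both experiments, with the call for SB431542 lost when most single libraries were left out. It was at 88.8 and 92.9 RPKM with DMSO and at 70.6 and 70.3 RPKM with T-5224 (log2 fold change -0.36, SE 0.05, adjusted p = 5.34e-05), without overlap. Rps4x was at 136 and 101 RPKM and then at 125 and 114 RPKM, and was not called (0.03, SE 0.11, adjusted p = 0.835). No unique share was computed for Rps4l, Rpl32l and Rpl41.

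**Figure D4:**
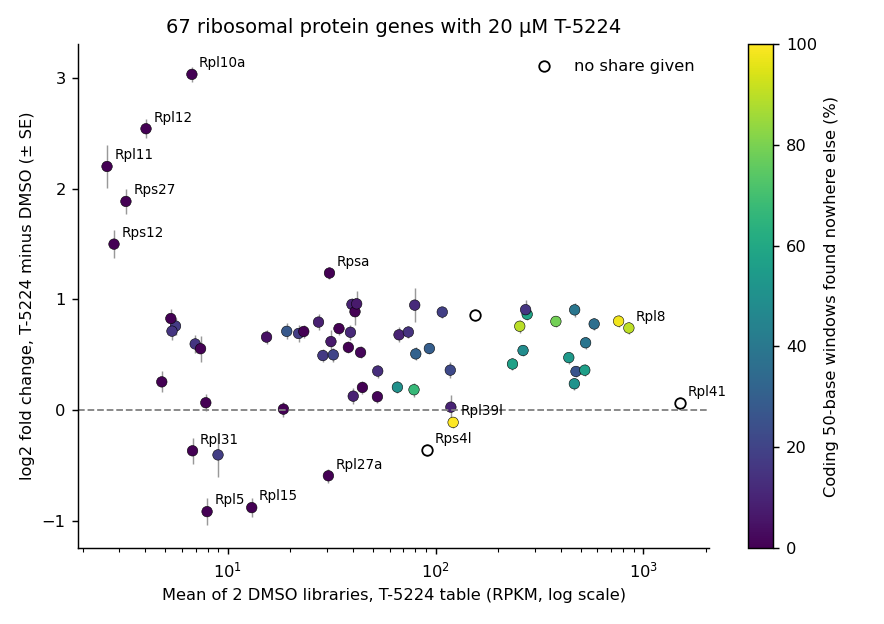
log2 fold change with T-5224 (± SE) of the 67 members against their mean DMSO level in the T-5224 table (log scale), coloured by unique share. Members at high levels lie mostly between 0.2 and 1, while the changes above 1.2 and most of those below -0.2 are found among dark points under about 40 RPKM.

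At the minimum itself, Rps23 (5.30 RPKM over all 4 libraries) and Rps12 (5.83) lay just inside, and Rpl35 (4.93) and Rpl27 (4.81) just outside. Of the 13 matched genes outside it 10 were tested. Of these 10, 5 (50%) were called higher and 0 lower, beside 40.3% and 39.4% of all genes tested. The 5 include Rpl10, at 2.29 and 1.77 RPKM with DMSO and 5.2 and 5.08 RPKM with T-5224 (log2 fold change 1.17, SE 0.11). Rps13, Rpl17 and Rpl29 were under the mean of 1 RPKM needed for a test.

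Both genes of several paralogue pairs could be followed. Rpl22l1, a paralogue of Rpl22 that can regulate splicing, was at 12.7 ± 1.5 RPKM with DMSO and 46.2 ± 0.692 RPKM with T-5224 (SD, n = 2; log2 fold change 1.83, SE 0.08, adjusted p = 1.68e-09), while Rpl22 was at 78.7 ± 2.21 and 89.6 ± 7.16 RPKM (0.18, SE 0.06, adjusted p = 0.0177). With SB431542 Rpl22l1 had 0.60 (SE 0.33, adjusted p = 0.223) and Rpl22 0.05 (adjusted p = 0.435). Rps27l, a p53 target, had 0.21 (SE 0.05, adjusted p = 0.00349) with T-5224 beside 1.89 for Rps27. Unique shares differed within these pairs, being 18.1% for Rpl22l1, 66.9% for Rpl22, 50% for Rps27l and 0% for Rps27. Rps27 was at 3.23 RPKM with DMSO and reached the minimum through the T-5224 libraries. Whether the genes of a pair responded differently was not tested. Rpl39 had 0.13 (adjusted p = 0.142) and Rpl39l -0.11 with T-5224, neither called.

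Rpl7 and Rpl7l1 were both called higher with T-5224 (log2 fold changes 0.36 and 0.19) and not with SB431542 (0.07 and 0.25). Rpl36al was called higher with T-5224 (0.50, SE 0.05) and Rpl36a, outside the minimum there, was not (-0.05, SE 0.13). Their unique shares were 18.4% and 0%. Rpl26 was called higher with T-5224 (0.95, SE 0.16), and Rpl26l1 and Rpl10l were not listed. The ubiquitin-like fusion gene Fau and the ubiquitin fusion gene Rps27a were both called higher with T-5224 (0.66 and 0.83) and not with SB431542 (0.08 and 0.21).

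The 66 genes that were members in both tables could be set side by side, since each experiment had its own DMSO libraries. Of the 8 members called higher with SB431542, 7 were members in the T-5224 table, and all 7 (Rpl12, Rpl35a, Rpl6, Rpl8, Rps10 and Rps18 among them) were called higher there too, as were 80.3% of the 66. No member was called in opposite directions.

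Other gene lists of the translation machinery give the surroundings of the members. Of all genes tested, 10.2% were called higher and 10% lower with SB431542, and 19.9% and 17.6% when DMSO replicate 1 was left out. With T-5224 these shares were 40.3% and 39.4%. Among 78 mitochondrial ribosomal proteins, which serve the ribosome of the mitochondrion, the median log2 fold change was 0.10 with SB431542. Of these, 9 (11.5%) were called higher and 0 lower, and 22 higher and 0 lower without DMSO replicate 1. With T-5224 the median was 0.35 over the 77 tested, with 51 (66.2%) higher and 11 (14.3%) lower. Mrps18b rose most with T-5224, from 16.3 ± 0.440 to 49.2 ± 0.367 RPKM (1.57), and Mrpl33 fell most, from 90.2 ± 3.80 to 42.2 ± 2.26 RPKM (-1.09). The largest rise with SB431542 was that of Mrpl28 (0.38, adjusted p = 0.0408).

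Of 45 ribosome biogenesis genes 20 (44.4%) were called higher and 0 lower with SB431542 (median 0.20). Without DMSO replicate 1 the counts were 32 higher and 0 lower (median 0.21). With T-5224, 41 (91.1%) were higher and 1 (2.22%) lower (median 0.82). Grwd1, a chaperone of Rpl3, was at 24.8 ± 2.13 RPKM with DMSO and 35.5 ± 1.74 RPKM with SB431542 (SD, n = 3; log2 fold change 0.51, adjusted p = 0.00502). With T-5224 Rrp9 (1.59), Gnl3 (1.47) and Wdr75 (1.43) rose most, and Ubtf, a factor of RNA polymerase I, was the one that fell (-0.29, adjusted p = 0.00108). These 4 genes have unique shares of at least 97.1%.

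Among 22 TOP mRNAs whose symbols did not match the naming rule, 17 (77.3%) were called higher and 3 (13.6%) lower with T-5224 (median 0.45). With SB431542, 1 (4.55%) was higher and 0 lower (median 0.05). Without DMSO replicate 1 the counts were 11 higher and 0 lower (median 0.07). Rack1, a scaffold on the small subunit, went from 791 ± 9.23 to 1375 ± 40.8 RPKM with T-5224 (0.80), and Tpt1 rose by 1.01. Hnrnpa1 (-1.34), Nap1l1 (-0.34) and the initiation factor subunit Eif3l (-0.14) fell. The unique share was 0% for Tpt1, 16.5% for Hnrnpa1, 13.7% for Nap1l1 and 98.5% for Eif3l. The limit given above for levels of low unique share applies to Tpt1, Hnrnpa1 and Nap1l1. Of 36 initiation factors 26 (72.2%) were higher and 4 (11.1%) lower with T-5224 (median 0.36). The largest rise was in Eif1 (1.82, unique share 6.48%) and the largest fall in Eif4g3 (-0.69, unique share 98.9%).

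The 8 TOP RNAs that host small nucleolar RNAs moved further. With T-5224 7 (87.5%) were called higher, each by more than 2-fold, and 1 (12.5%) lower, with a median of 2.25. Snhg12 went from 8.22 ± 0.479 to 192 ± 3.77 RPKM (4.47, SE 0.06), Snhg5 from 1.61 ± 0.276 to 26.3 ± 1.54 RPKM (3.67, SE 0.10) and Gas5 from 58.6 ± 2.68 to 458 ± 5.75 RPKM (2.95, SE 0.05), while Snhg3 fell (-0.65). With SB431542 Snhg3 (0.41), Snhg1 (0.34) and Snhg8 (0.25) were called higher, 0 lower, and the median was 0.01. Without DMSO replicate 1 the counts were 3 higher and 2 lower (median 0.01). No unique share was computed for the host RNAs named here.

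Among 23 regulators of TOP mRNAs 11 (47.8%) were higher and 9 (39.1%) lower with T-5224 (median 0.01). These shares are near the 40.3% and 39.4% of all genes tested. With SB431542, 3 were higher and 1 lower (median 0.12), and 9 and 2 without DMSO replicate 1 (median 0.05). Larp1, which binds the TOP motif, rose in both experiments (log2 fold change 0.21, adjusted p = 0.0285 with SB431542 and 0.46, adjusted p = 7.30e-06 with T-5224), as did Eif4ebp1, a translation repressor that mTOR inactivates (0.27 and 2.42). Cnbp, of the same list, was also called higher in both. Sesn3, an inhibitor of mTORC1 signalling, fell in both (-0.46 and -2.49). The other Sesn genes called with T-5224 went in opposite directions, since Sesn1 fell (-2.15) and Sesn2 rose (1.19). The genes named here therefore do not show a common direction of the list.

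**Figure D5:**
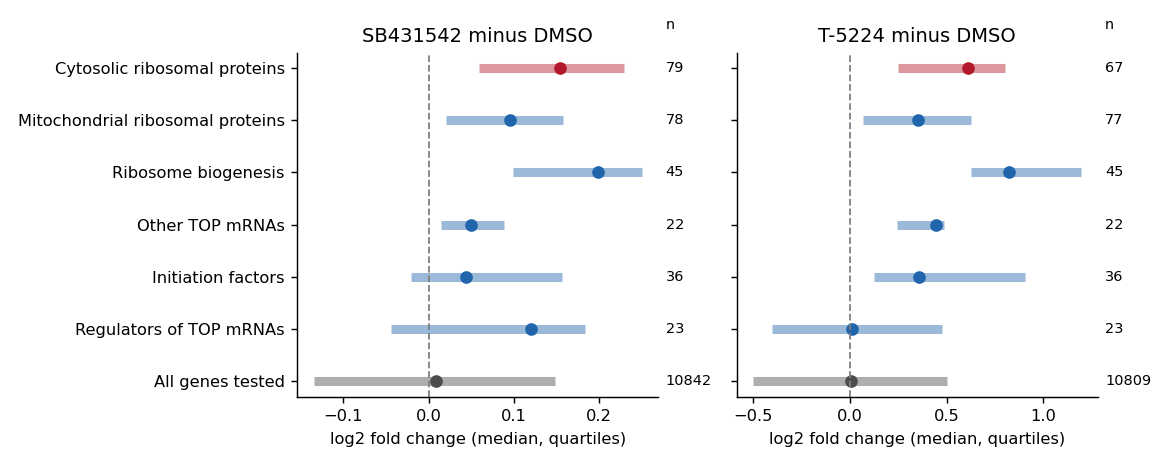
Median (points) and quartiles (bars) of the log2 fold changes with SB431542 (left) and T-5224 (right) for the members, 5 other lists and all genes tested, with the number of genes tested (n) beside each. The horizontal scales differ between the panels. The members' quartiles lie above 0 in both, as do those of mitochondrial ribosomal proteins, ribosome biogenesis genes and other TOP mRNAs.

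Other RNAs moved in the same libraries. Of 8 markers of basal keratinocytes and BCC, 6 were lower and 2 higher with T-5224. Their summed level went from between 11862 and 12517 RPKM with DMSO to between 1714 and 1770 RPKM with T-5224, and from 3.54 to 0.487% of the summed RPKM on average. Most of this sum was Krt5 (6001 RPKM with DMSO, 589 with T-5224) and Krt14 (5708 and 809 RPKM), so it mainly describes these 2 keratins. Epcam (70.7 and 124.5 RPKM) and Ptch1 were the 2 that rose. With SB431542 3 of the 8 markers were lower and 1 higher. Their sum, again mostly Krt5 and Krt14, went from 9356 to 9542 RPKM to between 6613 and 7071 RPKM. Of 10 markers of other cell types, 8 were under 1 RPKM in every library of each table or not listed, Ptprc, Col1a1 and Lyz2 being among those under 1 RPKM. The other two, Cd68 and Pecam1, reached 33.2 and 11.8 RPKM, and Pecam1 was called lower with both inhibitors and Cd68 higher with T-5224. The part of these changes in the members' values was not tested. RPKM are relative to the library, so more mRNA of the members and less of other genes cannot be told apart, nor can fewer cells of a kind and less RNA per cell in bulk samples. The 2 T-5224 libraries differed in Rn45s (1862 and 5184 RPKM, against 3401 and 3473 with DMSO), and the members' median log2 difference from the DMSO mean was 0.66 in the first and 0.59 in the second.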

How the data were processed

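RNA-seq of 10 libraries of ASZ001 cells was analysed (stranded mRNA libraries, per the labels). The authors aligned reads to mm9 with TopHat and computed the deposited RPKM with HOMER. Counts were not analysed here, so a count test was not run. Rows named by dates were left out (22 and 23), and 0 value columns were left unused. Genes with a mean of at least 1 RPKM were tested with limma 3.58.1 (R 4.3.3) on log2(RPKM + 0.5), letting the prior variance follow the mean level, with p-values adjusted by Benjamini-Hochberg. The fit was tested on simulated data. Fold changes on this scale understate those of low genes. Replicates are biological per the study, and the spread between them sets the errors. Depth was estimated from steps in RPKM of genes shorter than 250 bases. DMSO columns 1 and 2 of the T-5224 table are numbered 4 and 5 in the labels.

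The members, gene lists and tests were chosen with earlier results of these data known. Genes named are the 5 highest and 5 lowest members per table, the 6 largest called rises and falls per experiment, Rplp0 to Rplp2, Rpsa, Rps6, Rps19, Rps14, Rpl5, Rpl11, Rps27a, paralogues, genes at the minimum, and up to 3 called rises and falls per list. Rps3, Rpl4, Rpl6, Rpl35a, Gapdh, Ppia and the marker genes, named beyond this rule, and the choice of printed sequences were made after values were seen. The unique share counts exact matches of 50-base windows of the coding sequence (GENCODE vM1, 1 transcript a gene) on both strands of NCBIM37, the assembly of mm9. Start windows are from RefSeq (GRCm38.p6). Alternatives were pseudocounts, filters, scalings, no trend, a replicate block, each library left out and subsets of members. Some genes that the rule names are not reported here.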

Additional observations from a re-analysis of the deposited data

How the results depend on the processing

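The count of members called with SB431542 depended more on the setting than the median did. Against 8 higher and 1 lower, the counts were 5 higher with equal sums of RPKM without Rn45s, 31 higher at an unadjusted p under 0.05, 0 higher with no filter on low values and with quantile normalization, and 0 lower with median centring and without the trend. Leaving out 1 library gave 0 to 57 higher and 0 to 1 lower, with 57 only without DMSO replicate 1 and 0 without DMSO replicate 2 or any SB431542 replicate. The replicate block gave 0 higher and 0 lower. The deviations of same-numbered libraries from their group means had correlations of -0.15, 0.15 and -0.09 over genes. With 3 libraries a group these values cannot tell whether the numbers pair the libraries. For SB431542 the members' median log2 fold change was 0.12 to 0.18 under all settings other than quantile normalization, where it was 0.072. Over the 12 members with at least 50% of windows unique (a subset chosen after seeing the data) 1 (8.33%) was higher and 0 lower with SB431542. Of all genes tested 10.2% were higher and 10% lower. For T-5224 11 of the 12 (91.7%) were higher and 0 lower, with a median of 0.45, beside 40.3% and 39.4% of all genes tested. With T-5224 the counts ranged from 51 to 55 higher and 4 to 6 lower over the other settings on the 67 members, and the median was 0.55 with equal sums and 0.58 to 0.66 with 1 library left out. The members' share of the summed RPKM was higher with each inhibitor also without Rn45s. It was 12.7% with SB431542 against 11.7% with DMSO, and 4.32% with T-5224 against 3.04%. Pseudocounts and the trend do not enter this share. Its groups did not overlap, so leaving out 1 library could not turn its direction. The Rpl35 log2 fold change with SB431542 (-0.07) ranged from -0.20 to 0.18 with 1 library left out, and was 0.18 without DMSO replicate 1. The Rps4x log2 fold change with T-5224 (0.03) ranged from -0.19 to 0.25, and was called lower (-0.19, adjusted p = 0.0171) without the second DMSO library and higher (0.25, adjusted p = 0.00208) without the first. Of 31 named members called with T-5224, 27 kept their call under every setting, and the others were Rpl22, Rpl31, Rps23 and Rps27l. Of 7 named members called with SB431542, 0 did. The causes were not tested. With 2 or 3 libraries a group, and few reads on members of low unique share in the T-5224 table, small changes there could not be resolved.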
